A study of Mus musculus with 6 samples.

Results

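The proteasome is the protease that degrades proteins tagged with ubiquitin. Its barrel-shaped core is built of rings of alpha subunits, which form the gate, and rings of beta subunits, some of which cut peptide bonds. A regulatory cap of ATPases and non-ATPase subunits binds the tagged protein, removes the ubiquitin, unfolds the chain and feeds it through the gate. In immune cells, and in other cells after interferon, alternative beta subunits replace the cutting ones to form the immunoproteasome. In skeletal muscle the ubiquitin-proteasome pathway degrades a large share of the contractile protein lost during wasting. The genes described here are the protein-coding mouse genes whose symbol starts with Psma, Psmb, Psmc, Psmd, Psme, Psmf or Psmg followed by a digit. Of 50 such symbols in the GENCODE M21 annotation, 47 were among the 12353 genes of the deposited expression table, and *Psma8*, *Psmb11* and *Psme2b* were not.

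RNA sequencing compared the gastrocnemius, a calf muscle of mostly fast fibres, between Nogo-/- mice and Nogo+/+ mice, with 3 mice in each group and 1 library per mouse. Nogo is the membrane protein of the endoplasmic reticulum encoded by *Rtn4*, and the Nogo-/- mice are a knockout for which the sources name no tissue-specific driver. The labels name no treatment or injury for either group, and the age and sex of these mice are not given in the sources used here. Libraries are called by the column numbers of the table: Samples 4, 5 and 6 are the Nogo-/- muscles and Samples 1, 2 and 3 the Nogo+/+ muscles. Levels are given as FPKM, a fragment count scaled by transcript length and by the number of mapped fragments, so that genes can be set side by side. The spread in every test is the one between these 3 and 3 mice.

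*Rtn4* was at 0.423, 0.312 and 0.368 FPKM in the Nogo-/- muscles, against 414, 429 and 425 FPKM in the Nogo+/+ muscles, matching the labels. The steps between the lowest FPKM values give a depth of about 13700000 to 14600000 fragments in the Nogo-/- libraries and about 13500000 to 14400000 fragments in the Nogo+/+ libraries. The 10 markers of fast fibres summed to 35643 to 38059 FPKM in Nogo-/- and 37444 to 38267 FPKM in Nogo+/+ muscles. Sample 6 stood apart from the other Nogo-/- libraries: 8 measured skin keratinocyte genes summed to 215 FPKM there, against 3.91 and 9.99 FPKM in Samples 4 and 5 and 2.98 to 13.6 FPKM in Nogo+/+. The 8 endothelial markers summed to 155 to 192 FPKM in Nogo-/- and 223 to 249 FPKM in Nogo+/+ muscles. In whole muscle, fewer cells of a type and less RNA per cell cannot be told apart.

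The proteasome genes spanned a 117-fold range of mean level over the 6 libraries, and their levels differed by role. The 31 subunits of the constitutive core and of the cap, which every cell needs in fixed proportions, lay between 28.1 FPKM (*Psma2*) and 188 FPKM (*Psmb6*), within a 6.68-fold range. The core beta subunits ran from 61.3 FPKM (*Psmb1*) to 188 FPKM (*Psmb6*). The core alpha subunits ran from 28.1 FPKM to 129 FPKM (*Psma3*). The cap ATPases had the narrowest range of these classes, 2.76-fold, between 45.9 FPKM (*Psmc6*) and 127 FPKM (*Psmc3*). The 11 non-ATPase cap subunits lay between 36.2 FPKM (*Psmd14*, the cap's deubiquitinating enzyme) and 142 FPKM (*Psmd8*).

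Most genes that assemble or modify the particle were lower. The 7 assembly chaperones, which guide ring and cap formation and leave the finished particle, lay between 6.44 FPKM (*Psmd10*) and 22.1 FPKM (*Psmg2*). Among the activators, which open the core without ATP, *Psme4* was the most abundant at 60.6 FPKM, while *Psmf1*, an inhibitor of the core in vitro, was at 8.23 FPKM. The immunoproteasome subunits *Psmb10*, *Psmb8* and *Psmb9* were at 20.2, 6.36 and 3.77 FPKM. The lowest gene, *Psmc3ip* at 1.61 FPKM, is not a proteasome subunit. It encodes a meiotic recombination factor named as a partner of *Psmc3*, and the symbol rule took it in.

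The order of levels was partly resolved. Of the 46 pairs of neighbours in the order of all members, 7 did not overlap over the 6 libraries. Within roles, the ranges did not overlap for 4 of 6 neighbour pairs among the alpha subunits, 3 of 6 among the constitutive beta subunits, 4 of 5 among the ATPases and 3 of 10 among the non-ATPase subunits. *Psmb6* and *Psmb7*, the highest members, overlapped in range. The median coefficient of variation within groups was 4.53% over the members, against 8.82% over all genes and 5.04% over the 2672 genes with a mean between 20 and 200 FPKM, where 37 of the members lie. *Psmd5*, a chaperone of the cap base, varied most, at 20.4%.

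**Figure D1:**
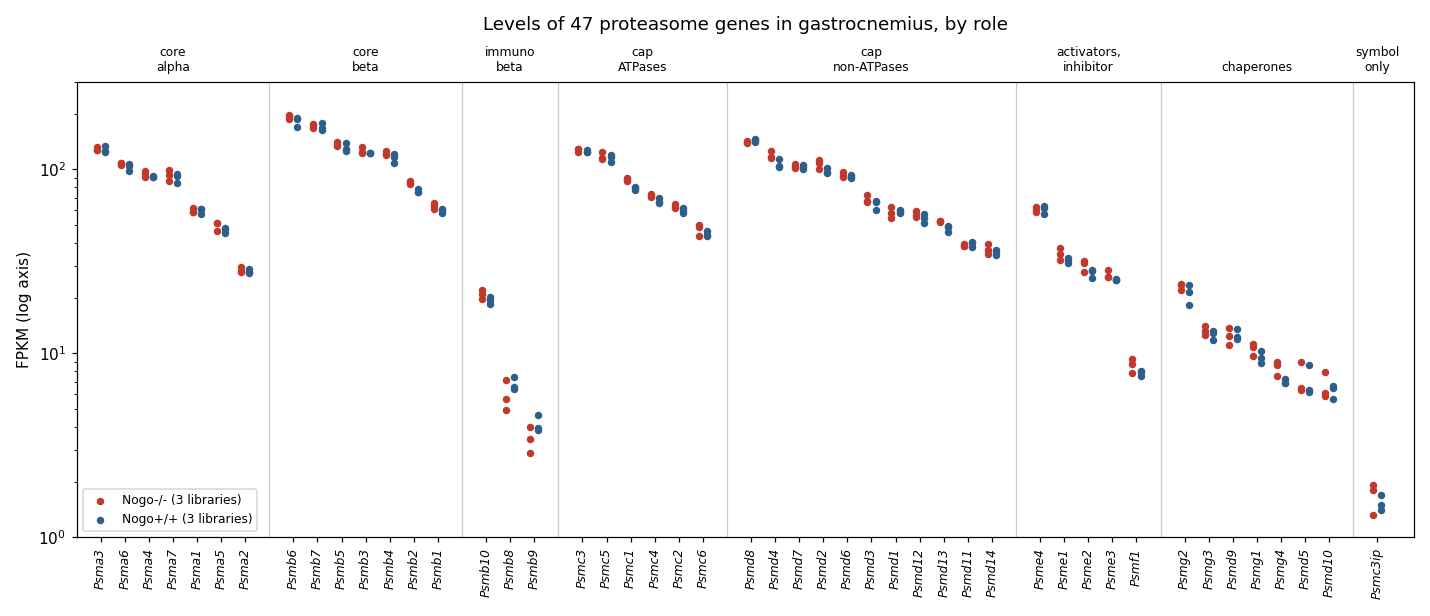
FPKM (log axis) of each of the 47 genes in each library, grouped by role and sorted by mean level, with 3 Nogo-/- muscles (red, left) and 3 Nogo+/+ muscles (blue, right) per gene. Core and cap subunits lie between 28.1 and 188 FPKM on average, and the chaperones and immunoproteasome subunits below them, with the points of both genotypes close together for nearly all genes.

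Promoters of the members were searched for the letters bound by known regulators of proteasome genes. The factors encoded by *Nfe2l1* and *Nfe2l2* pair with small Maf proteins and bind antioxidant response elements, and the *Nfe2l1* product is known for raising proteasome genes when the protease is inhibited. RefSeq promoter sequences (GRCm38.p6) were found for 40 of the 47 members. In the 250 bases before the start site, the core TGACNNNGC occurred on either strand in 5 of 40 members (12.5%), against 14% of the 9435 table genes with a promoter and 11.5% of all 27025 promoters. These 5 stretches are shown because *Nfe2l2* is among the few pathway genes that changed. The core letters are in capitals, and where the match is on the other strand the capitals show its reverse complement. They lie at chr14:54618024-54618052 (minus strand, *Psmb5*), chr11:70525338-70525356 (plus, *Psmb6*), chr14:45329587-45329615 (plus, *Psmc6*), chr11:107479278-107479299 (plus, *Psmd12*) and chr5:123228149-123228177 (plus, *Psmd9*).
Psmb5: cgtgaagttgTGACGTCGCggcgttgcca
Psmb6: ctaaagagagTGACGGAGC
Psmc6: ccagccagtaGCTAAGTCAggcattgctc
Psmd12: tctGCTGTGTCAcatttgcccc
Psmd9: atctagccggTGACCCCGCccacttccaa

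The match ends 1 base before the start site in *Psmb6* and begins 247 bases before it in *Psmd12*. The box CCAAT, bound by the NF-Y complex, was in 14 of 40 members (35%), against 40.1% of table genes and 37.5% of all promoters. An ETS letter run, CCGGAAG, searched after the data had been seen, was in 13 of 40 members (32.5%), against 15.5% of table genes and 7.83% of all promoters. Also searched then were the interferon-stimulated response element, in 7.5% of members (2.93% of table genes), and the TATA box, in 10% (8.27%). The gamma-activated site was in 5% (6.82%) and the NF-kappaB half-palindrome in 22.5% (26.1%). A match is a run of letters and not a binding site.

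The central comparison asked whether proteasome genes differed between Nogo-/- and Nogo+/+ muscle. None of the 47 passed limma at an adjusted p under 0.05, where 573 of 12353 genes did (4.64%; 1.89% higher and 2.75% lower), and the lowest adjusted p of a member was 0.197. Without quantile normalization the calls over all genes were 302 higher and 234 lower, against 233 and 340 with it. At an unadjusted p under 0.05 there were 5 members (10.6%), against 20.5% of all genes. The fitted log2 fold changes, Nogo-/- over Nogo+/+, lay between −0.24 (*Psmb9*) and 0.18 (*Psmg4*), with a median of 0.026 against −0.0067 for all genes. The 95% interval lay within 1.2-fold in either direction for 39 members (83.0%), against 35.5% of all genes and 68.2% of genes of 20 to 200 FPKM. For all 47 it lay within 1.5-fold. Both bounds are on the scale log2(FPKM + 1), where fold changes of low genes are understated.

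All 31 constitutive core and cap subunits were within the 1.2-fold bounds. In the same 20 to 200 FPKM range limma called 156 of 2672 genes (5.84%), the smallest at an absolute log2 fold change of 0.16, with a median of 0.36 over the called genes. The 8 members whose intervals reached past 1.2-fold were *Psmb8*, *Psmb9*, *Psmf1*, *Psmg1*, *Psmg2*, *Psmg4*, *Psmd5* and *Psmc3ip*. All but *Psmg2* had a mean of 10.1 FPKM or less.

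Most members had slightly higher fitted levels in Nogo-/- muscle without passing the test. The log2 fold change was above 0 for 34 of 47 members (72.3%), against 47.9% of all genes, and for 30 to 39 members over the 12 alternative settings. The members' median stayed above 0 in each of these settings, and 30 members kept 1 sign throughout. The FPKM of 7 members did not overlap between the groups (14.9%, against 25.9% of all genes), all higher in Nogo-/-, a direction that held 15.9% of all genes. Overlap was read from the deposited FPKM, before quantile normalization. On that scale the median log2 fold change over all genes was 0.034, against −0.0067 after normalization. No member was lower without overlap, against 10% of all genes.

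**Figure D2:**
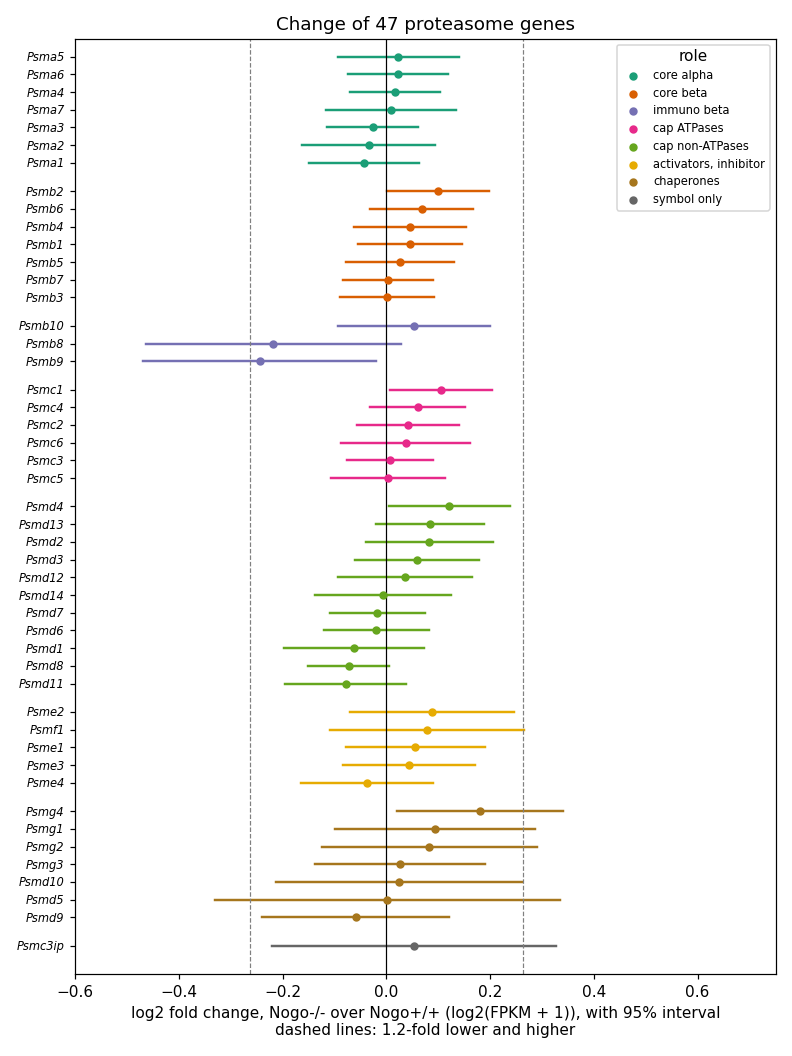
Log2 fold change, Nogo-/- over Nogo+/+, of each of the 47 genes on the log2(FPKM + 1) scale, with points for the limma estimate, bars for its 95% interval and colours for the role. The 31 core and cap subunits outside the immunoproteasome lie within the dashed 1.2-fold lines, and *Psmb8* and *Psmb9* lie farthest to the left.

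The 7 core alpha subunits, which form the gated outer rings, showed 4 estimates above and 3 below 0, with a median of 0.0090 and none at an unadjusted p under 0.05. *Psma1* was at 61.5, 58.4 and 58.9 FPKM in the Nogo-/- muscles, against 61.2, 57.3 and 61.2 FPKM in the Nogo+/+ muscles. Its groups overlapped, with a log2 fold change of −0.044 (95% interval −0.15 to 0.062, adjusted p = 0.654 from limma). *Psma3*, the most abundant alpha subunit, had 129 ± 3.03 FPKM in Nogo-/- and 128 ± 5.26 FPKM in Nogo+/+ muscles (SD, n = 3 each), with a log2 fold change of −0.027. *Psma2* and *Psma6* were at −0.034 and 0.022 on the same scale, and the signs of *Psma2* and *Psma3* turned without quantile normalization.

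All 7 constitutive beta subunits had estimates above 0, with a median of 0.045, although *Psmb7* and *Psmb3* lay within 0.01 of 0 and changed sign in 5 of the 12 alternatives each. *Psmb2*, a subunit without cutting activity, was at 86.4, 84 and 83.3 FPKM in the Nogo-/- muscles, against 75.3, 78.7 and 75 FPKM in the Nogo+/+ muscles. The 3 Nogo-/- muscles all lay above the 3 Nogo+/+ muscles, with a log2 fold change of 0.10 (95% interval 0.00082 to 0.20) and an adjusted p of 0.24 from limma.

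The constitutive cutting subunits overlapped between the groups. *Psmb6*, which carries the caspase-like activity, was at 188, 194 and 197 FPKM in the Nogo-/- muscles, against 189, 169.7 and 189 FPKM in the Nogo+/+ muscles (log2 fold change 0.068, 95% interval −0.031 to 0.17). *Psmb5*, which carries the chymotrypsin-like activity and is the target of bortezomib, was at 140.4, 136 and 135 FPKM in the Nogo-/- muscles, against 139, 125 and 129.7 FPKM in the Nogo+/+ muscles. Its log2 fold change was 0.026 (95% interval −0.077 to 0.13). *Psmb7*, the trypsin-like subunit, had 174 ± 4.12 FPKM in Nogo-/- and 170.1 ± 7.47 FPKM in Nogo+/+ muscles (SD, n = 3 each). The structural subunits *Psmb1* and *Psmb4* were at log2 fold changes of 0.045 and 0.045.

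The 6 cap ATPases, which unfold the substrate, also had estimates above 0, with a median of 0.040, but *Psmc3* and *Psmc5* changed sign in 3 and 4 of the alternatives. *Psmc1*, whose tail helps to open the gate of the core, was at 87.3, 86.3 and 89.8 FPKM in the Nogo-/- muscles, against 78.8, 77.6 and 80.4 FPKM in the Nogo+/+ muscles. The groups were separate, with a log2 fold change of 0.11 (95% interval 0.0073 to 0.20, adjusted p = 0.214 from limma, 0.0883 without quantile normalization). *Psmc4* was at 72, 73.5 and 70.8 FPKM in the Nogo-/- muscles, against 66.9, 65.7 and 69.6 FPKM in the Nogo+/+ muscles, again without overlap, at a log2 fold change of 0.061 (95% interval −0.031 to 0.15). *Psmc2* and *Psmc6* overlapped between groups, at 0.042 and 0.037 on the log2 scale.

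The 11 non-ATPase cap subunits were divided, with 5 estimates above and 6 below 0. *Psmd4*, a receptor for ubiquitin chains, was at 116, 116 and 126 FPKM in the Nogo-/- muscles, against 105, 104 and 113 FPKM in the Nogo+/+ muscles. The groups did not overlap, at a log2 fold change of 0.12 (95% interval 0.0045 to 0.24, adjusted p = 0.227 from limma). *Psmd13* was likewise separate, at 52.3, 52.2 and 52 FPKM in the Nogo-/- muscles, against 49, 45.6 and 48.4 FPKM in the Nogo+/+ muscles, with a log2 fold change of 0.084 (95% interval −0.019 to 0.19). *Psmd2*, a scaffold that docks ubiquitin receptors, overlapped slightly, at 0.083 on the log2 scale.

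On the other side of 0, *Psmd8*, the most abundant cap subunit, was at 143, 140.2 and 139.8 FPKM in the Nogo-/- muscles, against 140.5, 144 and 147 FPKM in the Nogo+/+ muscles. The groups overlapped, with a log2 fold change of −0.072 (95% interval −0.15 to 0.0058, adjusted p = 0.282 from limma). *Psmd11*, a scaffold that ties the cap to the core, was at −0.079 (95% interval −0.20 to 0.037). *Psmd14* was at −0.0059 and changed sign in 7 of the 12 alternatives.

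Of the activators, *Psme1* and *Psme2* encode the partner subunits of an interferon-inducible ring that binds the core, and *Psme3* a related nuclear ring. *Psme1* was at 37.2, 34.9 and 32 FPKM in the Nogo-/- muscles, against 32.1, 32.9 and 31.1 FPKM in the Nogo+/+ muscles. *Psme2* was at 31.9, 27.7 and 31 FPKM in the Nogo-/- muscles, against 28.3, 25.7 and 27.9 FPKM in the Nogo+/+ muscles. Both overlapped between groups, at log2 fold changes of 0.056 (95% interval −0.079 to 0.19) and 0.088 (95% interval −0.071 to 0.25). *Psme3* was at 26, 28.6 and 26.2 FPKM in the Nogo-/- muscles, against 25.2, 24.9 and 25.5 FPKM in the Nogo+/+ muscles, without overlap, and its log2 fold change of 0.043 (95% interval −0.084 to 0.17) had an adjusted p of 0.717 from limma. *Psmf1* had 8.62 ± 0.744 FPKM in Nogo-/- and 7.83 ± 0.294 FPKM in Nogo+/+ muscles (SD, n = 3 each), and *Psme4* had a log2 fold change of −0.037.

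Among the chaperones, *Psmg4*, which acts with *Psmg3* in building the alpha ring, had the highest estimate above 0 of all members. It was at 9.02, 8.63 and 7.51 FPKM in the Nogo-/- muscles, against 6.93, 7.28 and 6.91 FPKM in the Nogo+/+ muscles. The groups did not overlap, and the log2 fold change of 0.18 (standard error, SE, 0.070, and 95% interval 0.020 to 0.34) had an adjusted p of 0.197 from limma. *Psmg1* and *Psmg2*, also partners in alpha ring assembly, were at 0.094 (95% interval −0.098 to 0.29) and 0.083 (95% interval −0.12 to 0.29), with overlapping groups. The base chaperone *Psmd9* was at −0.060 (95% interval −0.24 to 0.12). *Psmd5* was at 6.53, 9.04 and 6.31 FPKM in the Nogo-/- muscles, against 8.63, 6.14 and 6.3 FPKM in the Nogo+/+ muscles, where 1 library in each group was high and the interval was the widest among all members, −0.33 to 0.33.

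Of the 3 immunoproteasome subunits, *Psmb9* and *Psmb8* gave the lowest estimates of all members and *Psmb10* did not. *Psmb9*, the inducible counterpart of *Psmb6*, was at 3.96, 3.42 and 2.86 FPKM in the Nogo-/- muscles, against 3.92, 3.85 and 4.6 FPKM in the Nogo+/+ muscles. Samples 5 and 6 lay below all Nogo+/+ muscles and Sample 4 within their range. The log2 fold change was −0.24 (SE 0.098, 95% interval −0.47 to −0.020), with an adjusted p of 0.209 from limma. *Psmb8*, the counterpart of *Psmb5*, was at 7.21, 5.67 and 4.91 FPKM in the Nogo-/- muscles, against 7.45, 6.42 and 6.53 FPKM in the Nogo+/+ muscles. The same pair of Nogo-/- muscles was low, with a log2 fold change of −0.22 (95% interval −0.46 to 0.027, adjusted p = 0.302 from limma). *Psmb10*, the counterpart of *Psmb7*, was at 22, 19.9 and 21 FPKM in the Nogo-/- muscles, against 18.6, 19.5 and 20.3 FPKM in the Nogo+/+ muscles, overlapping at a log2 fold change of 0.053 (95% interval −0.093 to 0.20).

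The estimates for *Psmb8* and *Psmb9* moved with single libraries. Without Sample 6 they were −0.13 and −0.18, with adjusted p-values of 0.557 and 0.402 from limma. Without Sample 4 they were −0.33 and −0.31, with adjusted p-values of 0.0986 and 0.168 from limma. Of 9 measured leukocyte markers none passed the test (0 at an unadjusted p under 0.05, against 20.5% of all genes). Their summed level was 46.8 to 74.3 FPKM in Nogo-/- and 49.7 to 82.3 FPKM in Nogo+/+ muscles, lowest in Samples 6 and 3. Most of that sum came from *Lyz2*, at 52.7, 40.5 and 31.5 FPKM in Nogo-/- and 59.8, 44.3 and 35.5 FPKM in Nogo+/+ muscles. The T-cell gene *Cd3e* and the myeloid gene *Itgam* of that list were not in the table. The part of leukocytes in the immunoproteasome levels was not tested.

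The share of each inducible subunit was set against its constitutive counterpart in every mouse. *Psmb9* was at 2.10%, 1.76% and 1.45% of *Psmb6* in the Nogo-/- muscles, against 2.07%, 2.27% and 2.43% in the Nogo+/+ muscles. *Psmb8* was at 5.13%, 4.17% and 3.64% of *Psmb5* in Nogo-/-, against 5.37%, 5.12% and 5.04% in Nogo+/+ muscles. *Psmb10* was at 12.4%, 11.4% and 12.4% of *Psmb7* in Nogo-/-, against 11.3%, 11.6% and 11.4% in Nogo+/+ muscles. All 3 ratios overlapped between the groups. Means were 1.77% ± 0.324 and 2.26% ± 0.182 for *Psmb9*, 4.31% ± 0.758 and 5.17% ± 0.173 for *Psmb8*, and 12.1% ± 0.625 and 11.4% ± 0.172 for *Psmb10*, in Nogo-/- and Nogo+/+ muscles (SD, n = 3 each). Two-sided exact permutation tests gave p = 0.2, 0.3 and 0.3, all 0.3 when adjusted over the 3 ratios, and 3 against 3 mice cannot give less than 0.1.

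**Figure D3:**
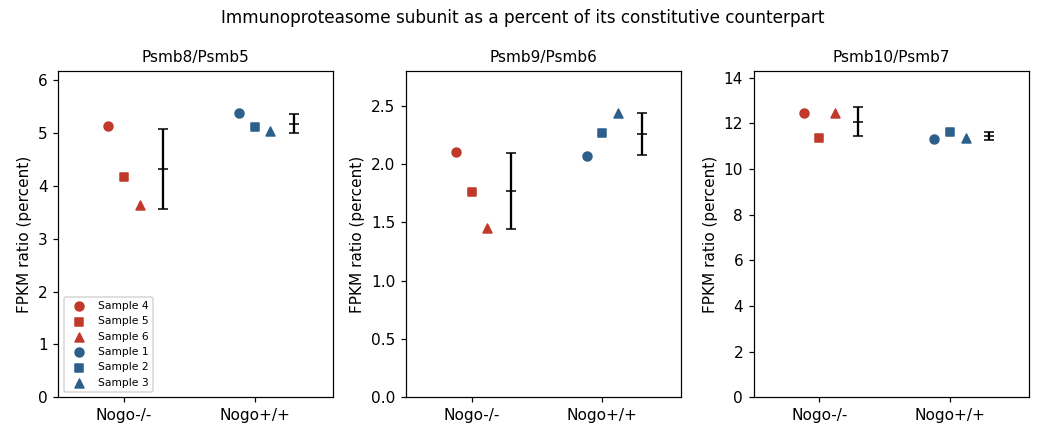
FPKM of each immunoproteasome subunit as a percent of its constitutive counterpart in each muscle, with Nogo-/- (red) left of Nogo+/+ (blue), 1 marker shape per library, and the mean ± SD (n = 3) beside each group. In Samples 5 and 6 the *Psmb9* and *Psmb8* ratios lie below those of all Nogo+/+ muscles, while Sample 4 lies within their range.

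*Psmb8* and *Psmb9* lie beside the peptide transporter genes on chromosome 17, in the class II region of the major histocompatibility complex. *Psmb9* and *Tap1*, which encodes a subunit of that transporter, are transcribed in opposite directions, and their annotated exons overlap by 212 bases (chr17:34187553-34187764, GRCm38). *Tap1* was at 2.57, 2.92 and 2.02 FPKM in the Nogo-/- muscles, against 3.06, 4.0 and 3.8 FPKM in the Nogo+/+ muscles, without overlap, at a log2 fold change of −0.43 (95% interval −0.70 to −0.16, adjusted p = 0.0853 from limma). Of 13 antigen presentation and interferon genes none passed, and 2 had an unadjusted p under 0.05, against 20.5% of all genes. These were *Tap1* and the class I activator *Nlrc5*, at −0.29. Estimates were below 0 for 11 of the 13, against 6434 of all 12353 genes. Another 5 members overlap exons of a neighbour on the other strand, *Psmb7*, *Psmc3*, *Psmc3ip*, *Psmd13* and *Psme1*, by 14 to 385 bases. The library kit keeps the strand, and whether the quantification used it is not given in the sources used here.

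*Rps27a* encodes ubiquitin, the tag that the proteasome reads, fused to a ribosomal protein. It was at 279.7, 278 and 263 FPKM in the Nogo-/- muscles, against 218, 214 and 220.4 FPKM in the Nogo+/+ muscles. Every Nogo-/- muscle lay above every Nogo+/+ muscle, and *Rps27a* rose, with a log2 fold change of 0.28 (SE 0.030, limma adjusted p = 0.00171), passing in all 12 alternatives. *Ubb*, which also encodes ubiquitin, was at 206, 201 and 194 FPKM in the Nogo-/- muscles, against 197, 204 and 199 FPKM in the Nogo+/+ muscles. It did not pass, with a log2 fold change of −0.026 (95% interval −0.10 to 0.053), and neither did *Uba1*, the main ubiquitin-activating enzyme, at 0.0036 (95% interval −0.16 to 0.17). The ubiquitin units of different genes encode the same protein. Whether fragments were assigned to the right gene, *Rps27a* or *Ubb*, was not tested.

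Among 11 regulators of proteasome genes, 1 passed, against 4.64% of all genes. *Nfe2l2*, a factor of the oxidative stress response, was at 21.6, 20.2 and 21.1 FPKM in the Nogo-/- muscles, against 14.5, 13.4 and 13.1 FPKM in the Nogo+/+ muscles. It rose, with a log2 fold change of 0.54 (SE 0.062, limma adjusted p = 0.00281), and passed in all 12 alternatives. *Nfe2l1* was at 157, 175 and 174 FPKM in the Nogo-/- muscles, against 183, 184 and 188 FPKM in the Nogo+/+ muscles, lower without overlap, but did not pass, at a log2 fold change of −0.15 (95% interval −0.27 to −0.032, adjusted p = 0.154 from limma). The small Maf gene *Maff* was at 0.36 (adjusted p = 0.216 from limma). The 5 members with the antioxidant response element letters printed above were at 0.026 (*Psmb5*), 0.068 (*Psmb6*), 0.037 (*Psmc6*), 0.035 (*Psmd12*) and −0.060 (*Psmd9*) on the log2 scale, and none passed.

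Of 9 measured proteasome partners with other symbols, 1 passed, against 4.64% of all genes. *Ecpas*, an adaptor that binds core and cap, was at 47.9, 46.9 and 44.6 FPKM in the Nogo-/- muscles, against 52.2, 55.4 and 54.2 FPKM in the Nogo+/+ muscles. It fell, with a log2 fold change of −0.25 (SE 0.049, limma adjusted p = 0.0261), but passed in 6 of the 12 alternatives and in 2 of the 6 fits without 1 library, where its adjusted p reached 0.119. *Adrm1*, a ubiquitin receptor of the cap like *Psmd4*, was at 58.8, 59.9 and 57.2 FPKM in the Nogo-/- muscles, against 51.4, 50.6 and 52.2 FPKM in the Nogo+/+ muscles, higher without overlap, and did not pass (log2 fold change 0.15, 95% interval 0.057 to 0.25, adjusted p = 0.0844 from limma). *Kcmf1*, a ubiquitin ligase subunit, was at −0.11. Of 13 shuttle factors and segregase subunits, which carry ubiquitylated proteins to the proteasome, none passed. An unadjusted p under 0.05 was found for 2 of them, against 20.5% of all genes. These were *Rad23b* at −0.13 and *Zfand5*, which stimulates the protease in wasting muscle, at 0.15.

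**Figure D4:**
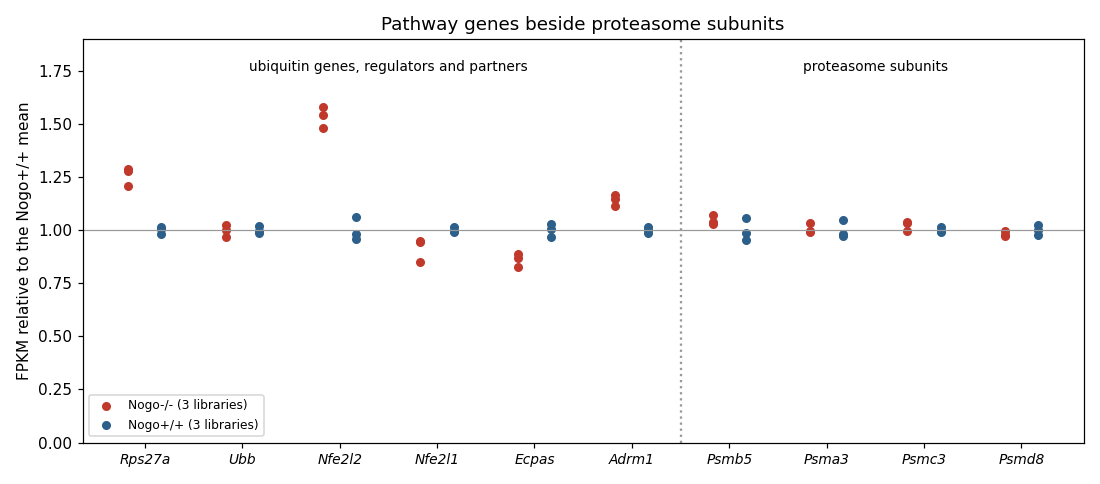
FPKM of *Rps27a*, *Ubb* and genes of regulators and partners (left of the dotted line) and of the constitutive subunits *Psmb5*, *Psma3*, *Psmc3* and *Psmd8* (right) in each library, divided by the mean of the Nogo+/+ muscles, with Nogo-/- points (red) left of Nogo+/+ points (blue). *Nfe2l2* and *Rps27a* lie above 1 and *Ecpas* below 1 in all 3 Nogo-/- muscles, while the 4 chosen subunits stay close to 1. The 5 constitutive subunits that were higher without overlap, *Psmb2*, *Psmc1*, *Psmc4*, *Psmd4* and *Psmd13*, are not shown.

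Among the marker lists of other cell types, genes past the test were found in the endothelial list. There 6 of 8 fell, against 2.75% of all genes. *Cldn5* fell by 1.13 and *Kdr* by 0.92 on the log2 scale, and both passed in all 12 alternatives. The other calls were less stable: *Emcn* passed in 8 of the 12 alternatives, *Pecam1* and *Cdh5* in 6 each and *Tek* in 5. Of the 6 fits without 1 library, *Emcn* and *Pecam1* passed in 2 each and *Cdh5* and *Tek* in 1 each, with limma adjusted p-values of up to 0.139. *Pecam1* and *Tek* also missed the threshold without quantile normalization (limma adjusted p = 0.0549 and 0.0804), and *Pecam1*, *Cdh5* and *Tek* without the variance trend (limma adjusted p = 0.0556, 0.0553 and 0.0526). Of 9 adipocyte markers none passed. An unadjusted p under 0.05 was found for 5 of them, all higher, against 20.5% of all genes in either direction. The adipocyte sum was 507 to 944 FPKM in Nogo-/- and 447 to 531 FPKM in Nogo+/+ muscles. Of 8 skin keratinocyte and 6 fibroblast markers none passed (0 at an unadjusted p under 0.05 in either list), and the fibroblast sum was 418 to 628 FPKM in Nogo-/- and 485 to 515 FPKM in Nogo+/+ muscles. The part of these cells in the level of any proteasome gene was not tested. Without Sample 6, the library with the skin genes, no member passed limma, where 420 of all 12353 genes did. In that fit 1 of 47 members had an unadjusted p under 0.05, against 2374 of all genes. Estimates were above 0 for 32 members, where the median log2 fold change over all genes was −0.0037.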

How the data were processed

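Polyadenylated RNA of gastrocnemius muscle was sequenced from 3 Nogo-/- and 3 Nogo+/+ mice. The authors deposited FPKM per gene for genes reaching 1 FPKM in at least 1 library; the submitters' processing notes name CASAVA 1.8.2, cutadapt 1.4.2, STAR 2.6.1, Cufflinks 2.2.1 and GRCm38.p6, and the gene models were those of Ensembl release 95. Groups of the table columns came from the heading of a supplementary table, and 6 columns of the authors' normalized log2 values were not used. FPKM were quantile normalized, put on the scale log2(FPKM + 1), where fold changes of low genes are understated, and compared with limma 3.58.1 (R 4.3.3, trended variance) over all 12353 genes with Benjamini-Hochberg adjustment at 0.05. Ratios of subunits used exact permutation tests in SciPy 1.17.1. Depth was read from the spacing of low FPKM values, and per library 94.2% to 96.8% of these values came out whole to within 0.1 fragment, where chance gives 20%.

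Members and lists were chosen with earlier results of these data known. Named with values were members past the threshold, up to 4 with the smallest p per role, all immunoproteasome subunits and ring activators, the 3 highest and 3 lowest by level, and in related lists genes past the threshold and up to 3 with the smallest p; other genes were named after their values were seen. Alternatives were a pseudocount of 0.1, a minimum mean of 1 FPKM, no quantile normalization, median scaling, no variance trend, array weights and leaving out each library. The script was tested on simulated data. Of the 7 motifs searched, 2 were listed with the design. Positions of genes are from GENCODE M21. Some genes of the related lists are not reported here.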

Additional observations from a re-analysis of the deposited data

How the results depend on the processing

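The count of 0 proteasome genes past limma's threshold held in all 12 alternatives. The lowest limma adjusted p of a member was 0.0883, for *Psmc1* without quantile normalization. In these settings 1 to 6 of 47 members had an unadjusted p under 0.05, against 1846 to 2590 of all genes. All genes were 12353, or fewer where a mean of at least 1 FPKM was required. The median log2 fold change of the members was 0.065 without quantile normalization, where the median over all genes was 0.034, and 0.015 to 0.035 when 1 library was left out. Over all genes, 188 to 434 passed when 1 library was left out, against 573 with all 6: 378 without Sample 4, 301 without Sample 1, 188 without Sample 2 and 192 without Sample 3. Of the 47 members, 30 kept 1 sign throughout, and only some of the sign changes are given here. Signs of estimates that did not pass turned for *Psma2* (0.023) and *Psma3* (0.0093) without quantile normalization. The sign of *Psmb7* turned under median scaling (−0.014) and array weights (−0.0025). It also turned without Sample 4 (−0.0045), Sample 5 (−0.010) or Sample 1 (−0.020). With 1 library left out the estimates ran −0.020 to 0.025 for *Psmb7*, −0.0052 to 0.042 for *Psma6*, −0.029 to 0.15 for *Psmc3ip* and −0.016 to 0.17 for *Psmg2*. The 3 subunit ratios, Nogo-/- over Nogo+/+, kept their direction. The causes of these shifts were not tested. No paired analysis was possible because the columns of the table do not carry the replicate numbers of the labels. The sources used here also describe no pairing of Nogo-/- with Nogo+/+ mice, and the tests treated the groups as unpaired. Members at or under 10.1 FPKM had most of the intervals that reached past 1.2-fold, and the part of depth in this was not tested.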
